A study of Mus musculus with 7 samples.

Results

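R792A_C793A Ago2 is a form of mouse Argonaute2 in which an arginine (R792A) and the cysteine next to it (C793A) are both replaced by alanine, and its bound miRNAs were compared with those of wild-type Ago2 (WT). The members of this comparison were all 959 mature miRNA names of the deposited count table, in 1 R792A_C793A library and 1 WT library of the 7 libraries of the series. Names with equal counts were merged, which left 950 miRNAs, and 337 of them were abundant enough to be tested. Both libraries came from mouse embryonic stem cells grown with leukemia inhibitory factor, with no endogenous Argonaute proteins, that carried Flag-tagged Ago2. Small RNAs were recovered with an anti-Flag antibody. Other Ago2 forms (K566A, Q548A, GKT_GKGT and PGKTP_AAAAA) and an empty control, from cells of the same kind, gave 1 library each and serve here only to place values.

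Each group is 1 library, so no value has a replicate check, no p-value is given, and every difference is between 2 libraries. Without molecular identifiers, intervals reflect counting error alone. Ago2-bound RNA alone was measured, so a lower level of a miRNA in the cells and less of it bound per Ago2 cannot be told apart.

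Argonaute proteins carry miRNAs as guides to target mRNAs. A precursor hairpin is cut into a duplex with a strand from each side, called the 5p and the 3p arm, and Argonaute usually keeps one strand, the guide, while the other, the passenger, is discarded. The choice between arms is known to depend on how stably each end of the duplex is paired and on the first base of each strand, which sits in a pocket of the MID domain. Both changed residues lie in the PIWI domain, which adjoins the MID domain and also holds the slicer activity of Ago2. The title of the series names small-RNA asymmetry, the unequal use of the strands of a duplex, as its question.

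The sequences below are the mature miRNAs on which the results turn, 5′ to 3′, from RefSeq (build GRCm38.p6), matched by name or synonym. Capitals mark the seed, bases 2 to 8, which pairs with targets. The first set holds miRNAs that share a seed with another one that rose in the R792A_C793A library, with miR-30c-5p shown because it has the seed but was not called. miR-30b-5p and miR-30d-5p belong beside them.
miR-30a-5p: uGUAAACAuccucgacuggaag
miR-30c-5p: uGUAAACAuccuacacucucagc
miR-30e-5p: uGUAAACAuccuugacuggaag
miR-146a-5p: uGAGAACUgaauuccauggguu
miR-146b-5p: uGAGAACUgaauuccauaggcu
miR-200a-5p: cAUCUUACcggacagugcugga
miR-200b-5p: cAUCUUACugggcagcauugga

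The second set holds both arms of some hairpins whose arm use is described below.
miR-423-5p: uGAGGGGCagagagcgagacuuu
miR-423-3p: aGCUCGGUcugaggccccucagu
miR-106b-5p: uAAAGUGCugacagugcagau
miR-106b-3p: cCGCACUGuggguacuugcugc
miR-154-5p: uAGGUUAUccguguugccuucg
miR-154-3p: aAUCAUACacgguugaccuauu
miR-15b-5p: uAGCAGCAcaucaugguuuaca
miR-15b-3p: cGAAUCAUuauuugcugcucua
miR-339-5p: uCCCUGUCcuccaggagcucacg
miR-339-3p: uGAGCGCCucggcgacagagccg
miR-291a-5p: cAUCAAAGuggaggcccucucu
miR-291a-3p: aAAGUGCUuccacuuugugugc

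The third set holds miRNAs that fell and are rich in G and C, and the fourth a seed shared within the miR-290 cluster by miRNAs with unlike ratios.
miR-370-3p: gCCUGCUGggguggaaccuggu
miR-296-3p: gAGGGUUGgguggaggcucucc
miR-877-5p: gUAGAGGAgauggcgcaggg
miR-290-5p: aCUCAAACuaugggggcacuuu
miR-292-5p: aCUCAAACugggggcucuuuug

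The R792A_C793A library held 56066232 counts and the WT library 94842507, with each name counted once. Levels are given as counts per 1000000 of that total (CPM). The miR-290 cluster, which marks mouse embryonic stem cells, summed to 732562 CPM in the R792A_C793A library and 777885 CPM in the WT library. Fibroblast markers had 9 of 21 names tested and summed to 3540 CPM and 2442 CPM. Markers of differentiated tissues had 5 of 19 names tested and summed to 569 CPM and 264 CPM, again with R792A_C793A first. The myeloid miR-223-3p was at 0 in both libraries, and the liver miR-122-5p was at 0.749 CPM in the R792A_C793A library and 0.949 CPM in the WT library. The part of these cell types in the results was not tested. The empty control held 33461 counts, and among the miRNAs called here its count was at most 0.488% of the R792A_C793A count. These are raw counts, and the R792A_C793A total was 1676-fold that of the empty control. In its make-up the control was like the Ago2 libraries, with 65.6% of its counts from miR-292-5p. Across the tested miRNAs its Spearman's rho was 0.85 with the R792A_C793A library and 0.85 with the WT library.

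Most miRNAs kept their rank, and a minority differed by more than 2-fold. Across the tested miRNAs Spearman's rho between the R792A_C793A and WT levels was 0.93, as a description over miRNAs, which are not independent. Of the 10 most abundant miRNAs, 9 were shared, and the 10 took 80.2% of the R792A_C793A counts and 82.6% of the WT counts. A miRNA was called when the 95% interval of its ratio lay wholly above 2 or below 0.5, and only called miRNAs are said to have risen or fallen. By this rule 53 of 337 (15.7%) were higher and 23 (6.82%) were lower in the R792A_C793A library.

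The split of calls turned round with the scaling. miR-292-5p took 57.3% of the R792A_C793A counts and 63.7% of the WT counts, so the counts outside it made up a 1.18-fold higher share of the R792A_C793A library. The median log2 ratio of all tested miRNAs was 0.43. With median-of-ratios library sizes every log2 ratio was lower by 0.36, the median was 0.07, and 20 miRNAs were higher and 43 lower. TMM sizes gave the same 20 and 43. All 20 of these higher calls were among the 53, and all 23 lower calls were kept, so the remaining higher calls and the added lower calls rest on the scaling. Medians of lists of miRNAs are therefore given below relative to the median of all. Members called in a list are to be read beside the shares of all 337 tested miRNAs, 15.7% higher and 6.82% lower. With median-of-ratios sizes these calls were 20 and 43 of 337.

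**Figure D1:**
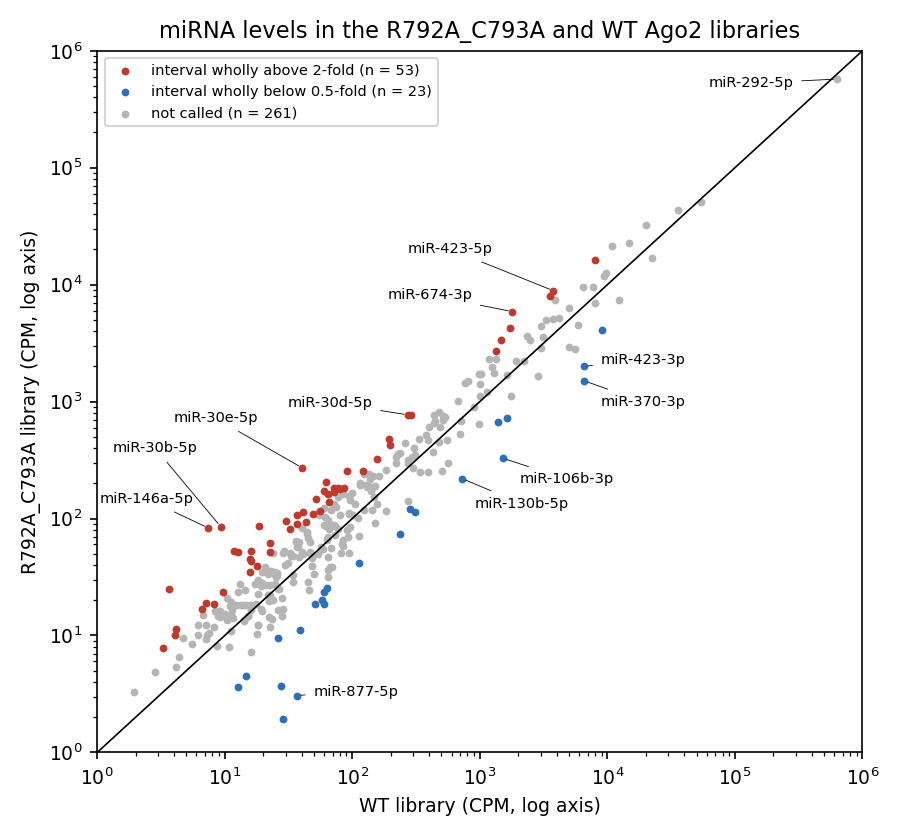
Level of each tested miRNA in the R792A_C793A library (vertical, CPM, log axis) against the WT library (horizontal, CPM, log axis), with 1 point per miRNA and the line of equality. The 53 miRNAs called higher and the 23 called lower lie on either side of the line, and miR-292-5p stands at the top right with 572946 CPM and 636783 CPM.

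The largest rises at high levels were in 5p arms of the miR-30 family, which is expressed in many tissues. miR-30e-5p was at 271 CPM (15170 counts) in the R792A_C793A library and 40.6 CPM (3852 counts) in the WT library, 6.66-fold higher with a log2 interval of 2.68 to 2.79. miR-30a-5p was at 207 CPM and 62.5 CPM, a log2 ratio of 1.73. Both were higher in the R792A_C793A library than in any of the other 5 Ago2 libraries. The K566A library came next, with miR-30e-5p at 240 CPM and miR-30a-5p at 139 CPM.

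A second group of rises had moderate to high levels. miR-674-3p was at 5882 CPM in the R792A_C793A library and 1793 CPM in the WT library, a log2 ratio of 1.71. It was still higher, at 7071 CPM, in the PGKTP_AAAAA library, so the R792A_C793A value was not the extreme. miR-18b-5p, of the miR-106a-363 cluster that is a paralog of miR-17-92, was at 767 CPM and 290 CPM, a log2 ratio of 1.40. miR-196a-1-3p, from a Hox cluster hairpin, was at 256 CPM and 91.4 CPM, a log2 ratio of 1.49. Higher levels were also found for miR-18b-5p (2706 CPM in K566A) and miR-196a-1-3p (356 CPM in GKT_GKGT). miR-674-3p, miR-18b-5p and miR-196a-1-3p were called with either scaling.

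Other rises were called with the total as library size but not with median-of-ratios or TMM sizes. miR-423-5p was at 8865 CPM in the R792A_C793A library and 3780 CPM in the WT library, a log2 ratio of 1.23. miR-151-3p, whose hairpin lies in an intron of Ptk2, was at 4286 CPM and 1734 CPM, a log2 ratio of 1.31. miR-148a-5p was at 476 CPM and 194 CPM, a log2 ratio of 1.29. The same held for miR-301a-5p (163.5 CPM and 64.3 CPM), for miR-200b-5p, miR-290-5p and miR-191-5p. miR-191-5p was the most abundant miRNA that rose, at 16183 CPM and 8041 CPM, and its interval lay just past 2-fold. The R792A_C793A level was the highest of the 6 Ago2 libraries for miR-301a-5p, miR-290-5p and miR-191-5p. Higher levels were found for miR-423-5p (19030 CPM in K566A), miR-151-3p (10378 CPM in PGKTP_AAAAA), miR-148a-5p (1075.5 CPM in K566A) and miR-200b-5p (950 CPM in GKT_GKGT).

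Below a mean of 100 CPM, 29 miRNAs rose and 13 fell, and those named here were chosen after their values were seen. miR-146a-5p, a miRNA known from innate immune signalling, had the highest ratio of all tested miRNAs, at 83.0 CPM (4654 counts) in the R792A_C793A library and 7.43 CPM (705 counts) in the WT library, a log2 ratio of 3.48. miR-155-5p, an immune-cell miRNA, was at 52.3 CPM and 16.2 CPM, a log2 ratio of 1.69. miR-342-5p was at 52.8 CPM and 11.8 CPM, a log2 ratio of 2.16. All 3 were called with both scalings, and miR-155-5p was higher in the K566A library (105 CPM) than in the R792A_C793A library.

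The largest falls at high levels were in miR-106b-3p, miR-370-3p, miR-130b-5p and miR-423-3p, and 10 falls in all reached a mean of 100 CPM. miR-106b-3p, from a hairpin in an intron of the DNA replication gene Mcm7, was at 329 CPM (18428 counts) in the R792A_C793A library and 1507 CPM (142928 counts) in the WT library, a log2 ratio of -2.20. miR-370-3p, of the imprinted Dlk1-Dio3 region, was at 1508 CPM and 6551 CPM, a log2 ratio of -2.12. miR-423-3p was at 2003 CPM and 6560 CPM, a log2 ratio of -1.71.

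miR-370-3p, miR-423-3p and miR-130b-5p were lower in the R792A_C793A library than in any of the other 5 Ago2 libraries. For each of them the WT level was the highest of the 6, so the other 4 forms lay below WT as well. miR-130b-5p was at 220 CPM in the R792A_C793A library and 724 CPM in the WT library, and between 253 and 636 CPM in the other 4. miR-106b-3p was not at an extreme, with 195 CPM in the Q548A library and 7990 CPM in the GKT_GKGT library. The other 6 falls ran from a log2 ratio of -1.67 for miR-667-3p to -1.05 for miR-328-3p. Among them miR-296-3p was at 4121 CPM and 9109 CPM, miR-434-3p at 726 CPM and 1621 CPM, miR-294-5p at 114 CPM and 309 CPM, and miR-501-3p at 121 CPM and 285 CPM, each with the R792A_C793A value first.

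At lower levels, the ratios of 3 miRNAs were smaller still. miR-760-3p had the lowest ratio of all tested miRNAs, at 1.93 CPM (108 counts) in the R792A_C793A library and 28.6 CPM (2717 counts) in the WT library, a log2 ratio of -3.89. miR-877-5p, from a mirtron, a hairpin released by splicing instead of by Drosha, was at 3.07 CPM and 36.6 CPM, a log2 ratio of -3.58. miR-668-3p was at 3.71 CPM and 27.4 CPM, a log2 ratio of -2.89. All 3 were lower still in the K566A library, where miR-877-5p was at 0.0671 CPM. That value is near the floor, since 3 counts make 0.201 CPM in the K566A library.

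In the miR-30 family all calls were of 5p arms. Of 5 tested 5p arms, 4 rose, and of 5 tested 3p arms none was called, with log2 ratios of -0.10 to 0.66. The median of all 10 was 0.20 higher than the median of all tested miRNAs. The 4 that rose were called with both scalings and were the highest of 6 libraries with both. miR-30b-5p was at 85.0 CPM in the R792A_C793A library and 9.31 CPM in the WT library, a log2 ratio of 3.19. miR-30d-5p was at 769 CPM and 275 CPM, a log2 ratio of 1.48. The exception was miR-30c-5p, which has the same seed as miR-30a-5p and miR-30e-5p, at 300.7 CPM and 219 CPM, a log2 ratio of 0.46 close to the median of all miRNAs.

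**Figure D2:**
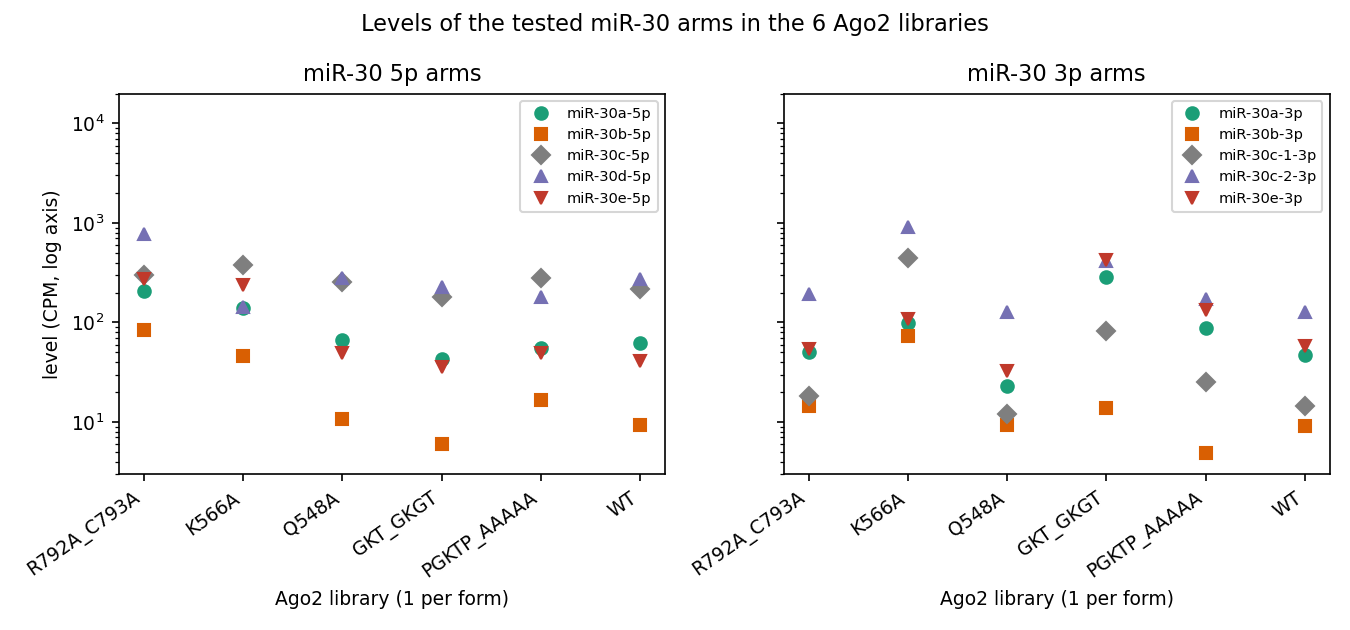
Levels of the tested miR-30 arms (vertical, CPM, log axis) in the 6 Ago2 libraries (horizontal), with 1 point per library, 5p arms on the left and 3p arms on the right. miR-30a-5p, miR-30b-5p, miR-30d-5p and miR-30e-5p are highest in the R792A_C793A library, where miR-30e-5p is at 271 CPM against 40.6 CPM in the WT library, while no 3p arm is.

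Members that shared a seed were grouped among tested miRNAs with a sequence. There were 31 seeds with at least 2 tested members, of which 8 had at least 2 members that rose, none had at least 2 that fell, and none had calls in both directions. With median-of-ratios sizes 2 seeds had at least 2 members that rose, those of miR-146 and miR-30, and 1 had 2 that fell, that of miR-291a-5p and miR-291b-5p. miR-146b-5p, with the seed of miR-146a-5p, was at 114 CPM in the R792A_C793A library and 41.2 CPM in the WT library, a log2 ratio of 1.47. miR-200a-5p was at 172 CPM and 60.04 CPM, a log2 ratio of 1.52, and its seed partner miR-200b-5p at 181 CPM and 71.4 CPM, a log2 ratio of 1.34. The larger let-7 and miR-17-5p seed families held no call with the total as library size. The 8 tested miRNAs with the let-7 seed ranged from -0.86 to 0.59, and the 6 with the miR-17-5p seed from 0.47 to 0.91 on the log2 scale. With median-of-ratios sizes let-7e-5p was called lower.

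The miR-290 cluster, the largest source of miRNAs in these cells, had a lower median than all tested miRNAs. Of 13 tested members 1 rose and 1 fell, and the median was 0.51 below that of all tested miRNAs. With median-of-ratios sizes none rose and 4 fell. Its 7 tested 5p arms had a median log2 ratio of -0.74 and its 6 tested 3p arms one of 0.43. miR-294-3p was at 32617 CPM in the R792A_C793A library and 19962 CPM in the WT library, while miR-294-5p fell. miR-293-5p was at 7371 CPM and 12283 CPM, a log2 ratio of -0.74, which did not pass the call rule.

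The seed CUCAAAC is shared by the 5p arms of miR-290, miR-292 and miR-293, whose ratios lay far apart. miR-290-5p was at 8021 CPM in the R792A_C793A library and 3546 CPM in the WT library, a log2 ratio of 1.18, and was the highest of the 6 libraries. miR-292-5p had a log2 ratio of -0.15. The related miR-302 cluster, also of pluripotent cells, had 3 of 10 names tested and none called, with a median 0.14 higher than the median of all. Its most abundant member, miR-302b-3p, was at 610 CPM and 403 CPM.

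Among other groups, the imprinted Dlk1-Dio3 cluster, on chromosome 12, had 63 tested members, of which 6 rose and 7 fell. Of all 337 tested miRNAs 53 (15.7%) rose and 23 (6.82%) fell. The median of the cluster was 0.36 lower than the median of all. With median-of-ratios sizes 2 members of the cluster rose and 16 fell. Its 38 tested 3p arms held 6 of the 7 falls. The members of Dlk1-Dio3 that rose included miR-154-5p, at 86.5 CPM in the R792A_C793A library and 18.7 CPM in the WT library, and miR-341-5p, at 25.1 CPM and 3.65 CPM.

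The miR-130 and miR-301 families with miR-148 and miR-152 had 11 tested members. Of these 5 rose and 1 fell, and their median was 0.42 higher than the median of all. None of the 5 was called with median-of-ratios sizes. miR-130b-3p was at 43.5 CPM in the R792A_C793A library and 15.995 CPM in the WT library, while miR-130b-5p of the same hairpin fell. The miR-17-92 cluster and its paralogs had 24 tested members, of which 4 rose and 1 fell, or 1 and 3 with median-of-ratios sizes. With the total as library size these counts were near the shares of all tested miRNAs, 15.7% higher and 6.82% lower. The median of these 24 members was 0.06 higher than the median of all. miR-363-3p was at 3362 CPM and 1466 CPM, a log2 ratio of 1.20.

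The miR-23/27/24 clusters had 8 tested members, of which 3 rose and 1 fell, and 5 were the highest of the 6 Ago2 libraries. Of all 337 tested miRNAs 57 (16.9%) were the highest of the 6, or 41 with median-of-ratios sizes. miR-23a-3p was at 90.0 CPM in the R792A_C793A library and 37.0 CPM in the WT library, and miR-23b-3p at 62.3 CPM and 22.6 CPM. The member that fell was miR-24-2-5p, at 18.6 CPM and 50.6 CPM. Their median was 0.46 higher than the median of all. With median-of-ratios sizes 1 rose and 1 fell.

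A further 4 lists had no call in either direction and at least 5 tested members: let-7 with miR-98, the cluster of miR-183, miR-96 and miR-182, the Sfmbt2 cluster, and miR-99/100 with miR-125. With median-of-ratios sizes let-7e-5p was called lower (a log2 ratio of -1.22), and the other 3 lists still had no call. Relative to all, the medians were -0.43 for let-7, 0.36 for the miR-183 cluster, 0.01 for the Sfmbt2 cluster and -0.15 for miR-99/100 with miR-125. miR-183-5p was at 21546 CPM in the R792A_C793A library and 10959 CPM in the WT library, a log2 ratio of 0.98 just short of the call rule. Of the markers of differentiated tissues 3 of 5 rose, among them the neural miR-9-5p at 167 CPM and 71.5 CPM, and of the fibroblast markers 2 of 9. Their medians were 0.65 and 0.27 higher than the median of all. Neither list had a call with median-of-ratios sizes.

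Among the remaining lists, the miR-200 family had 2 of 6 tested members higher, the miR-10 and miR-196 group of the Hox clusters 1 of 4, and the miR-15/16 family 1 of 6 lower. Of 7 tested miRNAs known to be made without Dicer or Drosha, 2 fell, both named above. None of 2 miR-34 and 3 miR-181 members was called. With median-of-ratios sizes 1 miR-200 member was higher, and the other counts were as given. Relative to all, the medians were 0.42 for miR-200, 0.37 for the Hox group, 0.19 for miR-15/16, -0.46 for those made without Dicer or Drosha, 0.03 for miR-34 and -0.11 for miR-181.

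Arm use was read as the 5p share of a hairpin's counts, in which library size cancels. Of 402 tested hairpins, the 5p-to-3p odds were called higher in 46 (11.4%) and lower in 35 (8.71%) in the R792A_C793A library. The median log2 odds ratio over all tested hairpins was 0.13. Among the 81 called hairpins the arm that was minor in WT gained in 40 and the major arm gained in 41. In 67 of the 80 called hairpins with counts on both arms in both libraries, the arms lay on opposite sides of the WT level. Hairpins are called for a difference between their arms, so this count follows in part from the call rule.

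**Figure D3:**
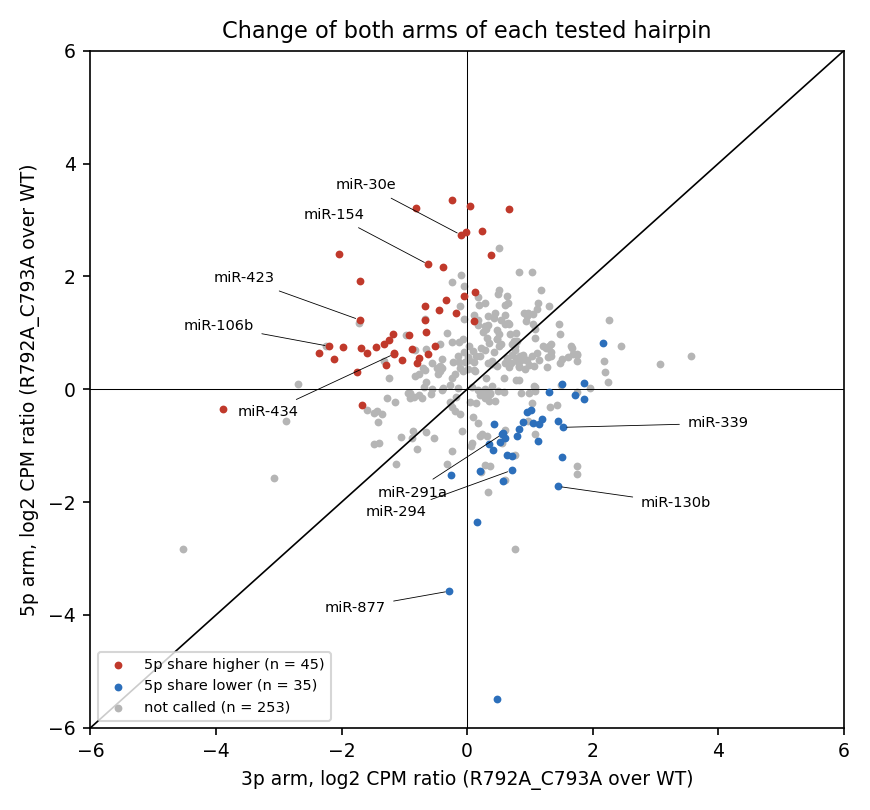
Log2 CPM ratio of the R792A_C793A over the WT library for the 5p arm (vertical) and the 3p arm (horizontal) of the 333 tested hairpins with both arms above 0 in both libraries, 1 point per hairpin. Called hairpins lie off the diagonal of equal change by the call rule, which also favours the quadrants where the arms moved apart. An example is miR-423 with 1.23 for 5p and -1.71 for 3p.

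miR-423, from an intron of Nsrp1 on chromosome 11 (76891588 to 76891646, mm9), had the largest change in 5p share among hairpins with over 1000 counts. Its 5p arm had 497049 counts and its 3p arm 112279 in the R792A_C793A library, against 358480 and 622209 in the WT library. The 5p share was 81.6% (95% Wilson interval 81.5 to 81.7%) in the R792A_C793A library and 36.6% in the WT library, so the main arm switched. The 5p share was between the WT and R792A_C793A values in the Q548A, GKT_GKGT and PGKTP_AAAAA libraries, at 69.5%, 58.1% and 63.5%, and was 87.2% in the K566A library.

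Other hairpins with over 1000 counts moved toward the 5p arm. miR-30e, in an intron of Nfyc on chromosome 4 (120445223 to 120445286, mm9), had a 5p share of 83.2% in the R792A_C793A library and 41.0% in the WT library, the highest of the 6. miR-154 had a share of 85.7% and 45.8%. miR-106b kept its 3p arm as the main one, with a 5p share of 24.01% and 3.91%, and log2 ratios of 0.76 for the 5p arm and -2.20 for the 3p arm. In miR-434 the 5p share was 83.2% and 59.0%. The 5p share of miR-30e was 68.9%, 60.3%, 7.81% and 26.8% in the K566A, Q548A, GKT_GKGT and PGKTP_AAAAA libraries. In the same order it was 96.3%, 62.2%, 38.9% and 44.6% for miR-154, and 12.7%, 29.5%, 0.355% and 3.68% for miR-106b.

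The miR-30 hairpins did not all move. miR-30a and miR-30b also passed the rule toward 5p, with 5p shares of 80.4% in the R792A_C793A library and 57.3% in the WT library for miR-30a, and 85.4% and 50.4% for miR-30b. miR-30d was almost wholly 5p in both libraries, at 99.6% and 99.5%, and was not called. The 2 miR-30c hairpins, which share a 5p arm, were not called either, with 5p shares of 94.2% and 93.7% for the first and 60.9% and 63.1% for the second.

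A separate group moved toward the 3p arm. miR-130b, on chromosome 16, had a 5p share of 83.5% in the R792A_C793A library and 97.8% in the WT library, and the log2 ratios were -1.72 for the 5p arm and 1.44 for the 3p arm. miR-339, on chromosome 5, had a 5p share of 51.9% and 83.2%. The mirtron miR-877 had a 5p share of 2.53% and 20.3%, with its 3p arm at 118 CPM and 144 CPM. In miR-130b, miR-339 and miR-877 the K566A library was lower still, with shares of 82.8%, 32.6% and 0.244%. The miR-877 share in K566A rests on fewer than 3 counts of the 5p arm.

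Several of the largest odds ratios rested on few counts of the minor arm. miR-1197 had 9 counts on the 5p arm in the R792A_C793A library and 0 in the WT library, whose 3p arm had 3689, and the exact lower 95% limit of the odds ratio was 11.7-fold. miR-326 had 28 and 9 counts on its 5p arm, with 159 and 1103 on the 3p arm, R792A_C793A first. miR-300 had a 5p share of 0.0473% and 0.00515% and so stayed a 3p hairpin. miR-106a had 3 counts on its 3p arm in the R792A_C793A library and 26 in the WT library.

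The more used arm was not the same in both libraries for 12 of 402 hairpins (2.99%), with both Wilson intervals off 50%. In 8 the R792A_C793A library used the 5p arm more and in 4 the 3p arm, and 8 of the 12 also passed the odds rule. Beside miR-423, miR-30e and miR-154, miR-18a had a 5p share of 78.0% in the R792A_C793A library and 48.9% in the WT library, and miR-15b one of 60.8% and 31.9%. The miR-145 hairpin went the other way, at 44.8% and 76.6%. In the K566A, Q548A, GKT_GKGT and PGKTP_AAAAA libraries the 5p share of miR-18a was 90.4%, 76.6%, 68.8% and 79.1%. In the same order it was 78.3%, 55.7%, 5.19% and 9.04% for miR-15b, and 0.110%, 66.1%, 58.1% and 11.7% for miR-145. miR-465b and miR-465c share their 3p counts, so their changes are not independent.

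**Figure D4:**
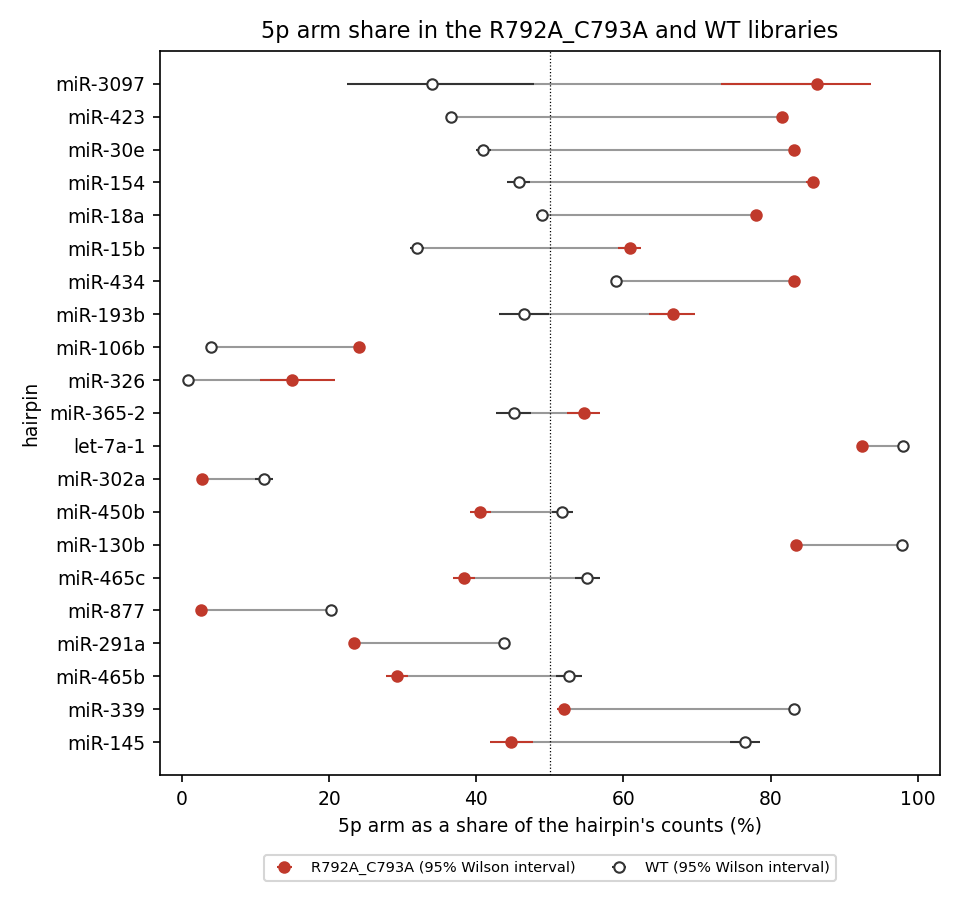
The 5p share of counts (horizontal, %) of 21 hairpins (vertical) in the R792A_C793A library (filled) and the WT library (open), with 95% Wilson intervals. They are those with a difference of at least 5 percentage points among the 10 largest odds changes each way and the 12 changes of main arm, with miR-434 and miR-291a added, and miR-423 is at 81.6% in R792A_C793A against 36.6% in WT.

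Within the miR-290 cluster the arms of 3 hairpins passed the odds rule, all toward the 3p arm. miR-291a, on chromosome 7 (3218933 to 3218990, mm9), had a 5p share of 23.4% in the R792A_C793A library and 43.8% in the WT library, with 163080 and 478449 counts on its 5p arm. miR-294 had a 5p share of 0.349% and 1.53%, and miR-291b one of 97.9% and 99.2%. The miR-292 hairpin moved less, at 92.9% and 94.7%, and miR-290 was the member with a higher 5p share, 97.4% and 96.3%. In the GKT_GKGT library the miR-291a 5p share was 93.5%.

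In the miR-302 cluster, miR-302a passed the rule toward 3p, with a 5p share of 2.66% in the R792A_C793A library and 11.1% in the WT library. miR-302b had 6 and 31 counts on its 5p arm and was not called. The 5p arms of miR-302c and miR-367 were at 0 in both libraries.

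Falls were most frequent among miRNAs rich in G and C. Among the 291 tested miRNAs with a sequence, the 52 with at least 60% G + C held 13 of the 22 with a sequence that fell and 3 that rose. Their median was 0.73 lower than the median of all tested miRNAs. Those with 40 to under 50% held 23 that rose and 6 that fell, of 102. The median G + C was 45.5% in those that rose, 62.8% in those that fell and 48.0% in the rest.

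Spearman's rho between the log2 ratio and G + C was -0.29 across miRNAs. With another library in place of WT it was 0.18 for K566A, -0.02 for Q548A, -0.32 for GKT_GKGT and -0.20 for PGKTP_AAAAA, all with the same R792A_C793A library. For the other forms over WT, rho with G + C was -0.26 for K566A, -0.46 for Q548A, 0.19 for GKT_GKGT and -0.02 for PGKTP_AAAAA. For R792A_C793A over WT, length and mean level showed rho of 0.09 and -0.01. Among the named miRNAs, miR-106b-3p (63.6%), miR-370-3p and miR-296-3p (68.2% each) and miR-423-3p (65.2%) fell. miR-15b-3p, with 36.4% G + C, fell as well, at 25.6 CPM in the R792A_C793A library and 62.8 CPM in the WT library, and miR-341-5p, with 76.2%, rose.

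**Figure D5:**
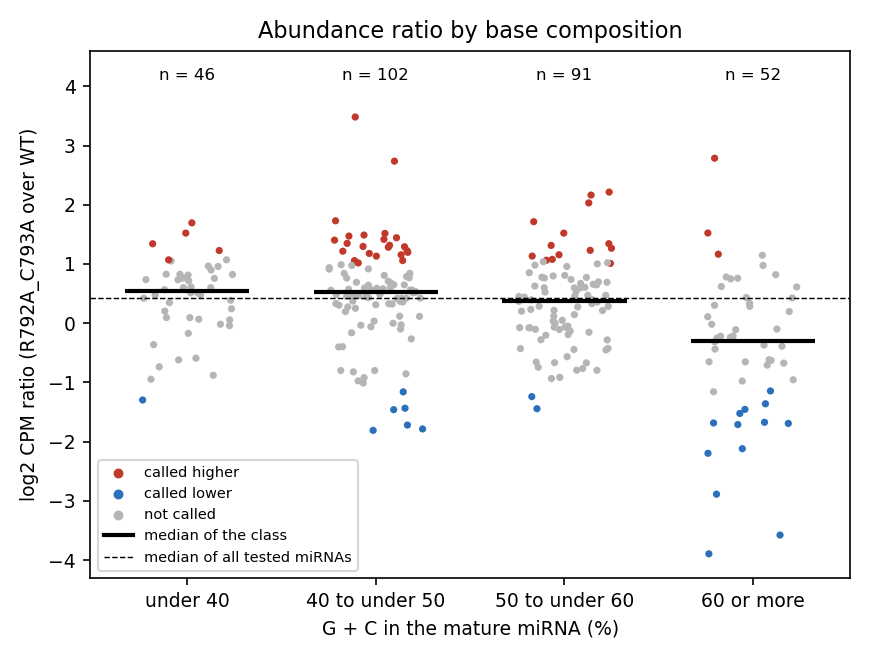
Log2 CPM ratio of the R792A_C793A over the WT library (vertical) of the 291 tested miRNAs with a sequence, by G + C content in 4 classes (horizontal), 1 point per miRNA, with the median of each class and, dashed, of all tested miRNAs. The class of 60% or more has its median at -0.30 and holds 13 of the falls, against a median of 0.43 for all.

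By first base, miRNAs that begin with G had the lowest median ratio. The 27 of them had 5 rises and 7 falls and a median 0.54 below that of all, while the 131 that begin with U had 21 rises and 5 falls and a median 0.03 above it. Those beginning with A (77) or C (56) had medians 0.11 below and 0.06 above it. These classes also differ in which miRNAs they hold, and the part of other features was not tested.

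First bases were also compared within hairpins, for the 314 tested hairpins with a sequence for both arms. In the 34 hairpins with a C-first and an A-first arm, 9 were called toward the C-first arm and 1 toward the A-first arm, with a median change of 0.06 in the log2 odds of C over A. The median was 0.59 over the 27 of them in which each arm had more than 3 counts in at least 1 library, and its sign changed with the hairpins kept. In 18 with a C-first and a G-first arm the median change was 0.77, and 1.67 over the 13 that met the same count limit, with 4 calls toward C and 2 toward G. In 65 with a C-first and a U-first arm it was 0.14, with 8 calls toward C and 4 toward U, and in 20 with an A-first and a G-first arm 0.04, with 1 call each way. In 36 hairpins with a U-first and a G-first arm the median change was -0.33, with 3 calls toward U and 5 toward G. In 65 with a U-first and an A-first arm it was -0.11, with 8 calls toward U and 3 toward A.

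Placed among all 6 Ago2 libraries, the R792A_C793A level was the highest in 57 tested miRNAs (16.9%) and the lowest in 13 (3.86%). Of the 53 that rose 20 were at the highest level, and of the 23 that fell 3 were at the lowest. With median-of-ratios sizes it was the highest in 41 and the lowest in 24. In 8 of the 53 that rose the WT level was the lowest of the 6, and in 10 of the 23 that fell it was the highest. The 5p share was the highest of 6 in 54 hairpins (13.4%) and the lowest in 42 (10.4%). By levels the R792A_C793A library ranked miRNAs most like the Q548A library, with rho of 0.94, and least like the K566A library, with 0.80.

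The call limits cut through a continuous range. miR-411-5p was just inside, at 2703 CPM in the R792A_C793A library and 1336 CPM in the WT library, and miR-200b-3p just outside, at 111 CPM and 53.6 CPM with a lower log2 limit of 0.997. On the low side miR-328-3p was just inside, at 669 CPM and 1389 CPM, and miR-298-5p just outside, at 2831 CPM and 5572 CPM. Names found in 1 library only were rare: 23 had counts in the R792A_C793A library alone, with at most 15 counts, and 42 in the WT library alone, with at most 10.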

How the data were processed

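The deposited table holds raw counts per mature miRNA locus, not normalized, per the labels and the values, which are whole numbers. Per the submitters' processing notes the tools were CASAVA 1.8.2 and TopHat2 2.0.9, with mouse build mm9. How reads were counted (program, strand, multiple matches) is not stated in the labels or header, so multi-copy and overlapping loci (11 tested miRNAs) are uncertain. Each name was counted once, by its highest of 1078 loci, and names with equal counts were merged (within 1% or 3 counts, with a sum of at least 200). Tested miRNAs had at least 10 CPM on average in the 6 Ago2 libraries, and tested hairpins a sum of at least 100. The arms of a hairpin start within 150 nt of each other. Host genes are from GENCODE by miRNA name. Ratios carry exact conditional 95% intervals, and odds ratios the conditional exact interval (Woolf where all 4 counts reach 500), with a pseudocount of 0.5 in medians. A count of 0 allows up to 3 counts, 0.0535 CPM in the R792A_C793A library and 0.0316 CPM in the WT library. Named miRNAs were the 12 largest rises and falls averaging at least 100 CPM in the 2 libraries, the 12 most abundant in WT, the 10 largest hairpin changes each way with at least 1000 counts, both cell-state clusters, list members and extremes, neighbours of the call limits, and exceptions stated in the text. The members and lists were chosen with earlier results of these data known. Alternatives were other scalings, filters and call limits. Tools were Python 3.11.15, scipy 1.17.1, pandas 2.3.3 and edgeR 4.0.16 (TMM only), and the intervals and calls were tested on simulated data.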

Additional observations from a re-analysis of the deposited data

How the results depend on the processing

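The calls of abundance depended on the scaling and the limits. The main counts were 53 higher and 23 lower with a median log2 ratio of 0.43. Median-of-ratios sizes and TMM sizes both gave 20 higher and 43 lower, with medians of 0.07 (0.0684 and 0.0718), and the total without miR-292 gave 28 higher and 36 lower with a median of 0.20. These settings change only the library sizes, by a log2 shift of -0.36, -0.36 and -0.23. Without a filter 86 were higher and 39 lower, with a mean of at least 100 CPM 23 and 9, past 1.5-fold 113 and 49, and past 3-fold 11 and 10. Arm use kept its counts within 1.5 times except past 1.5-fold odds, with 76 higher and 53 lower. In the first-base medians the sign was not stable: C over A was -0.18 with no hairpin minimum and -0.07 with 1 locus per arm, and C over G, at 0.77 in the main setting, was -0.23 with no minimum and 0.53 to 1.67 otherwise. A over G, at 0.04, was -0.29 with 1 locus per arm. In all, 71 of 90 alternatives for counts and medians stayed within their range. These include the first-base medians whose sign changed, because their ranges held values of both signs. Others could not move, because a changed call limit leaves medians as they were and the pseudocount does not enter the calls. Of the single miRNAs and lists, 628 of 747 alternatives kept their call or stayed in range, and none changed sign after a call. Many of these outcomes were fixed by the setting. A changed library size shifts all ratios alike, so list medians relative to all cannot move. A log2 shift of -0.36 cannot change the sign of a call past 2-fold. A changed filter or call limit leaves the ratio of a single miRNA as it was. The number of kept alternatives is therefore not a measure of stability. No paired analysis was possible because each group has 1 library, which also leaves no replicate to leave out. Depth limits arms of a few counts, such as those of miR-1197 and miR-106a.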
